A study of Mus musculus with 8 samples.

Results

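The genes described here are 33 mouse genes of the piRNA pathway and of the germ granules in which it works, among 55414 genes in the table. They were taken by name from a fixed list and all 33 were found by symbol. They were placed in groups of 3 PIWI proteins, 10 Tudor proteins, 16 biogenesis enzymes and granule factors, and 4 nuclear silencing factors. Total RNA of mouse testis was sequenced in 4 samples labelled valine, a branched-chain amino acid given as the treatment, and in 4 control samples. The sources used here give no strain, genotype or age, no dose, route or duration of the valine treatment, and no word on whether the samples are separate animals. The p-values therefore cover the spread among the 8 samples alone, part of which may be technical. Expression was deposited as FPKM, fragments scaled to gene length and to the mapped fragments of the library.

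PIWI proteins are Argonaute-family proteins of the germ line that carry small RNAs called piRNAs, which guide them to transposon transcripts and to other RNAs by base pairing. Precursor transcripts are cut and trimmed on the mitochondrial surface and in cytoplasmic granules, the intermitochondrial cement of spermatocytes and the chromatoid body of round spermatids. Tudor proteins hold these granules together by binding methylated arginines of the PIWI proteins. In fetal male germ cells a nuclear branch leads DNA methylation to transposons, while in the adult testis most piRNAs arise at the pachytene stage of meiosis. Male mice that lack many of these genes are sterile.

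Promoter sequence is shown for Tdrd1, the member with the smallest p among those with an entry in the promoter table, for Piwil1 and Ddx4, which served as denominators of the ratios below, and for Mael, the most abundant member. Each runs from 250 bases before to 50 bases after the first start listed for the gene, on the gene's own strand, from RefSeq on GRCm38.p6. Capitals mark AACTG and AACGG, cores of the binding motif of MYB proteins such as A-MYB (Mybl1), which drives pachytene piRNA genes, and the E-box CACGTG, all on either strand.
Tdrd1 at chr19:56825959-56826258, plus strand: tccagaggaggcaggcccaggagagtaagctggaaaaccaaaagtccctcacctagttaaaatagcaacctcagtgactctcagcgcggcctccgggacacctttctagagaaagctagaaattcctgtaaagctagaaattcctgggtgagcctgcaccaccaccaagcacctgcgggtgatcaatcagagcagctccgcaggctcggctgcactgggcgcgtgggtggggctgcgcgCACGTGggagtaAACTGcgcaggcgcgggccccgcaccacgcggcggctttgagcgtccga
Piwil1 at chr5:128735996-128736295, plus strand: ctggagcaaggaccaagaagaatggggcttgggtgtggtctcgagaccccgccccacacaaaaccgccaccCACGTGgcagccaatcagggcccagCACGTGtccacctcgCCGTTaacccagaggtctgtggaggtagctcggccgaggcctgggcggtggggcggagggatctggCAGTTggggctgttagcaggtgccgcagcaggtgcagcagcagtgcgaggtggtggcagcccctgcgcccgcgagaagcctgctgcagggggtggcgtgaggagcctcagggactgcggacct
Ddx4 at chr13:112652261-112652560, minus strand: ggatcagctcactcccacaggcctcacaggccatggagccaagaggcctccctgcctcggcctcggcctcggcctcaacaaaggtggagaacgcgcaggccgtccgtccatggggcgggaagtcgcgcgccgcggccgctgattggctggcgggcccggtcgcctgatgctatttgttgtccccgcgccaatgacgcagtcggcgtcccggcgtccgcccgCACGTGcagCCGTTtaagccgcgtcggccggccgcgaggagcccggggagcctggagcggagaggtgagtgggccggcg
Mael at chr1:166238695-166238994, minus strand: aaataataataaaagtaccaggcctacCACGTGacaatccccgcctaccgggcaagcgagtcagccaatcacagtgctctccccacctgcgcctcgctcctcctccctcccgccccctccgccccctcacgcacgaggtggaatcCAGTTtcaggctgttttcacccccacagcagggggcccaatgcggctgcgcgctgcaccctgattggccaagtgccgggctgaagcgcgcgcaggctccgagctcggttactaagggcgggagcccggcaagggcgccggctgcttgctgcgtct

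All 4 promoters held CACGTG, 2 times in Piwil1 and 1 time in each of Tdrd1, Ddx4 and Mael. The table had an entry for 25 of the 33 members, not for Piwil2, Tdrd6, Rnf17, Pnldc1, Tsnax, Tex15, Spocd1 or Morc1. CACGTG stood in 10 of these 25 promoters, against 7.24% of 27025 promoters of the same length. The E-box was added to the search after the sequences had been read. AACGG, or its reverse complement CCGTT, stood in 9 of the 25, against 17.7% of all promoters. AACTG, or CAGTT, stood in 9 of the 25, against 44.8% of all promoters. By their letters these motifs cannot overlap one another, and a match is a description of letters only. The 10 members with CACGTG had a median log2 change of -0.06 and the 14 tested members whose promoter had no such match a median of 0.02.

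The libraries had FPKM totals of 1027662 to 1070524 in valine testes and 944659 to 974626 in control testes. The most common ratio of low values between libraries gave depths, relative to control replicate 1, of 0.865 to 0.991 in valine and 0.870 to 1.000 in control libraries. The absolute depth was unknown. Markers of germ cells and of other testis cells were present in every library. Of 11 elongating spermatid markers, 9 rose, with a summed level of 59983 to 72461 FPKM in valine and 47481 to 49591 FPKM in control testes. With equal totals 7 of them rose, with quantile normalisation 2 and after removal of a length trend 3, and the median of the list stayed positive. Of 11 tested round spermatid markers 4 rose and 1 fell, with sums of 2578 to 2845 FPKM in valine and 2579 to 2811 FPKM in control testes, as deposited. In each of those 3 alternatives 1 rose and 1 fell, and with 1 library left out 1 or 2 rose. A further marker of that list, Actl7b, was listed at 0 in 6 libraries and at most at 0.105 FPKM in the others. Of 14 spermatocyte markers 1 rose (Ccna1) and 1 fell (Stag3), with sums of 2603 to 2695 FPKM in valine and 2460 to 2568 FPKM in control testes. With equal totals or quantile normalisation 0 of these 14 rose and 2 fell, and after removal of a length trend 0 rose and 1 fell. Of 10 spermatogonial markers 2 fell (Kit and Zbtb16) and 0 rose, with sums of 127.8 to 148.1 FPKM in valine and 116.0 to 136.8 FPKM in control testes. Their log2 changes were positive for 6 and negative for 4, with a median of 0.10. In 3 of them all valine values lay above all control values, and in 2 all lay below. Of 10 Sertoli markers 1 rose (Rhox8), or 0 with equal totals or without a length trend. All 7 Leydig markers fell, with sums of 460.7 to 750.8 FPKM in valine and 1580 to 2243 FPKM in control testes, and 6 of 9 tested macrophage, endothelial and myoid markers fell, with sums of 57.4 to 66.9 FPKM in valine and 125.6 to 147.5 FPKM in control testes. In bulk tissue, fewer cells of a type and less RNA per cell cannot be told apart. The part of these shifts in the results below was not tested.

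Valine testes had lower levels of Piwil2, Tdrd1 and Tdrd6 than control testes, and no member was higher at the same threshold. At a limma adjusted p below 0.05, 3 of the 32 tested members were lower (9.38%), where 4.41% of all 22077 tested genes were lower, and 0 were higher, where 4.32% of all genes were (8.73% in either direction). At an unadjusted p below 0.05 the counts were 3 lower and 4 higher of the 32, where 2612 and 3039 of all 22077 tested genes were. The groups did not overlap for 4 members (12.5%), 3 of them lower and 1 higher, against 18.4% of all tested genes (9.39% lower and 8.99% higher). The median log2 change of the tested members was -0.05, with 17 negative and 15 positive, beside 0.02 over all tested genes. The remaining member, Piwil4, lay under the expression filter of a mean of 1 FPKM. The calls were sensitive to single libraries. Without control replicate 1 or valine replicate 1, 0 members were lower (4 and 3 at an unadjusted p below 0.05). There was 1 without control replicate 3 or 4 or valine replicate 2, 3 or 4, and there were 2 without control replicate 2. Calls over all genes fell as well. Of these, 974 were lower as deposited, 461 without control replicate 1, 489 without valine replicate 1, and at most 802 with any library left out. All log2 changes are valine minus control on log2(FPKM + 1), where the change of a weakly expressed gene is understated.

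**Figure D1:**
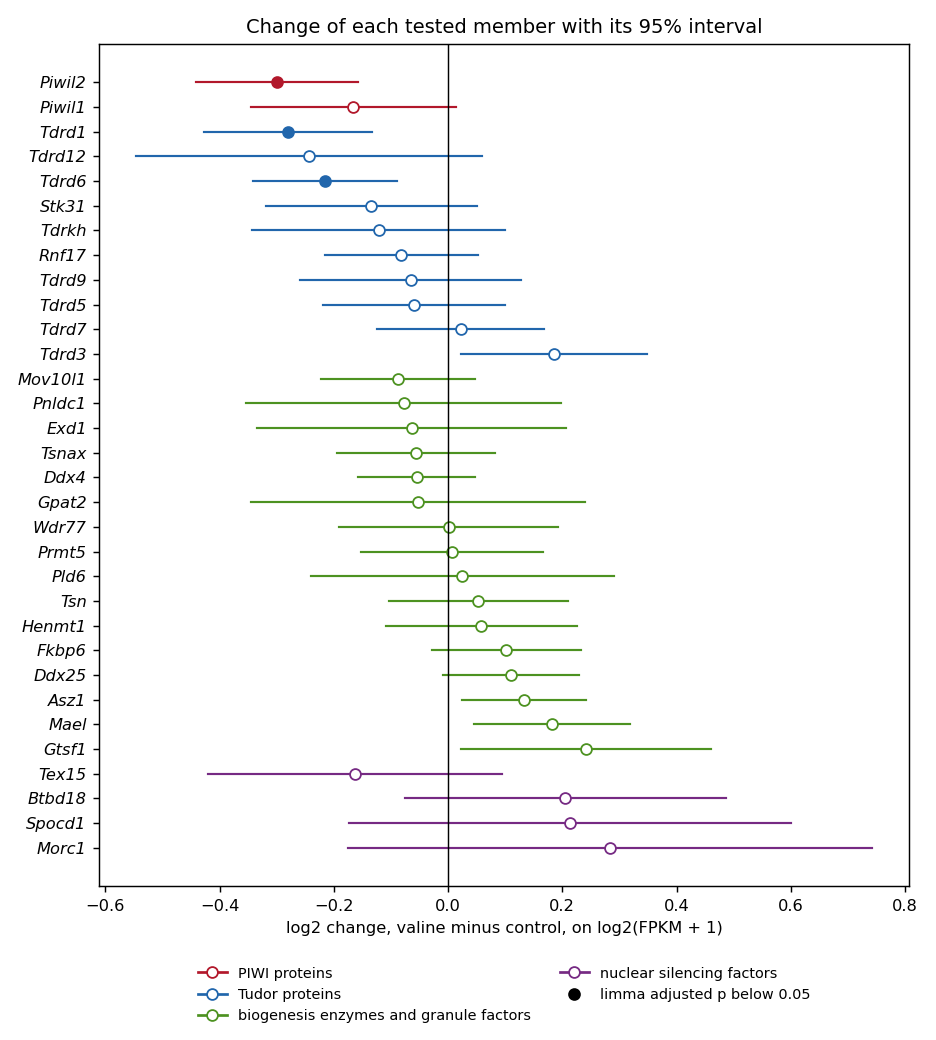
Log2 change of each of the 32 tested members (valine minus control, on log2(FPKM + 1)) with its 95% interval from limma, coloured by role, and filled where the adjusted p was below 0.05. Piwil2, Tdrd1 and Tdrd6 are the filled points, all left of 0, while the intervals of Tdrd3, Asz1, Mael and Gtsf1 lie right of 0 with open points.

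Levels spanned a wide range, from a mean of 1885 FPKM in valine and 1660 FPKM in control testes for Mael to 0.164 FPKM in valine and 0.308 FPKM in control testes for Piwil4. FPKM is per length, so levels may be set side by side between genes. Ddx4, Gtsf1, Piwil1 and Tdrd6 followed Mael in that order in control testes. Piwil1 and Tdrd6 were neighbours whose control values overlapped, as did Tdrd1, Rnf17, Piwil2 and Tdrd9 from each to the next. The coefficient of variation between libraries had a median over the tested members of 7.46% in valine and 6.28% in control testes.

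Among the PIWI genes, Piwil2 fell, Piwil1 was not called, and Piwil4 was near the limit of detection. Piwil2 (ENSMUSG00000033644; MILI), which acts from fetal germ cells through meiosis and cuts transposon RNA, had 68.9, 76.9, 71.0 and 71.0 FPKM in valine testes, against 91.0, 82.0, 96.4 and 86.2 FPKM in control testes. Every valine library was below every control library. The log2 change was -0.30 ± 0.062 (SE; limma adjusted p = 0.0242, lower in 4 of 4 valine samples), or a level 18.7% lower. It ranged from -0.34 to -0.26 with 1 library left out, with limma adjusted p values of 0.0309 to 0.0727; it passed in 4 of the 8 such fits and missed the threshold without control replicate 1 or valine replicate 1, 3 or 4.

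Piwil1 (MIWI), the main PIWI protein of pachytene spermatocytes and round spermatids, had 284, 308, 255 and 311 FPKM in valine testes, against 352, 293, 322 and 332 FPKM in control testes. The groups overlapped, since control replicate 2 lay below 2 valine libraries. The log2 change was -0.17 with a 95% interval of -0.345 to 0.014 (limma adjusted p = 0.229). Piwil4 (MIWI2), the nuclear PIWI protein of fetal germ cells, had 0.195, 0.260, 0.049 and 0.151 FPKM in valine testes, against 0.314, 0.417, 0.302 and 0.198 FPKM in control testes. Scaled by relative depth, these values stood as 7, 10, 2 and 6 steps in valine and 13, 15, 11 and 8 steps in control libraries, each within 0.068 of a whole number. If a step is 1 fragment, the gene rested on 25 fragments in valine and 47 in control libraries together. The groups overlapped at control replicate 4, and the gene lay below the filter of the test.

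The Tudor genes leaned to lower levels in valine testes, with 8 of 10 negative and a median log2 change of -0.10. Of all 22077 tested genes 10242 were negative. The median was negative under every scaling tried, but near 0 after removal of the length trend (-0.03, with 7 negative, 3 positive and 0 called). Of the 10, Tdrd1 and Tdrd6 fell. Tdrd1, which binds PIWIL2 in the intermitochondrial cement, had 84.8, 82.8, 74.0 and 86.7 FPKM in valine testes, against 104, 91.9, 101 and 102 FPKM in control testes. The groups did not overlap, with valine replicate 3 the lowest of all. The log2 change was -0.28 ± 0.065 (SE; limma adjusted p = 0.0337, lower in 4 of 4 valine samples). With 1 library left out it lay between -0.32 and -0.23 and passed in 2 of 8 fits, those without control replicate 2 or valine replicate 4 (limma adjusted p = 0.0387 to 0.0927).

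Tdrd6, a large Tudor protein needed to build the chromatoid body, had 268, 244, 283 and 257 FPKM in valine testes, against 294, 314, 316 and 296 FPKM in control testes. The groups did not overlap, and valine replicate 3 was the nearest to the control range. The log2 change was -0.21 ± 0.055 (SE; limma adjusted p = 0.048, lower in 4 of 4 valine samples). With 1 library left out it lay between -0.25 and -0.18 and passed only without valine replicate 3 (limma adjusted p = 0.0389 to 0.116).

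The other 8 Tudor genes did not pass. Tdrd12, a helicase-like partner of PIWIL2, averaged 40.4 ± 4.41 FPKM in valine and 48.3 ± 8.89 FPKM in control testes (SD, n = 4 each), with a 95% interval of the log2 change from -0.546 to 0.060. Stk31, a kinase with a Tudor domain, averaged 55.1 ± 6.29 FPKM in valine and 60.3 ± 1.73 FPKM in control testes. Tdrkh, which ties PIWI proteins to mitochondria for trimming, averaged 15.7 ± 1.24 FPKM in valine and 17.2 ± 2.20 FPKM in control testes. Its value is uncertain, since 36.7% of its exon length overlaps Oaz3 on the opposite strand, a spermatid gene whose log2 change was 0.34 (limma adjusted p = 0.0134), and whether counting used strand is not stated. Rnf17, a RING finger protein with Tudor domains, had a log2 change of -0.08, Tdrd9, the helicase partner of PIWIL4, one of -0.07, and Tdrd5, a granule protein needed to process pachytene precursors, one of -0.06. Tdrd7, a chromatoid body protein, had 0.02. Tdrd3 stood at the other end with a log2 change of 0.19 (24.9 ± 1.71 FPKM in valine and 21.8 ± 1.35 FPKM in control testes, limma adjusted p = 0.146). It is a reader of methylated arginines that is also made outside the germ line.

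**Figure D2:**
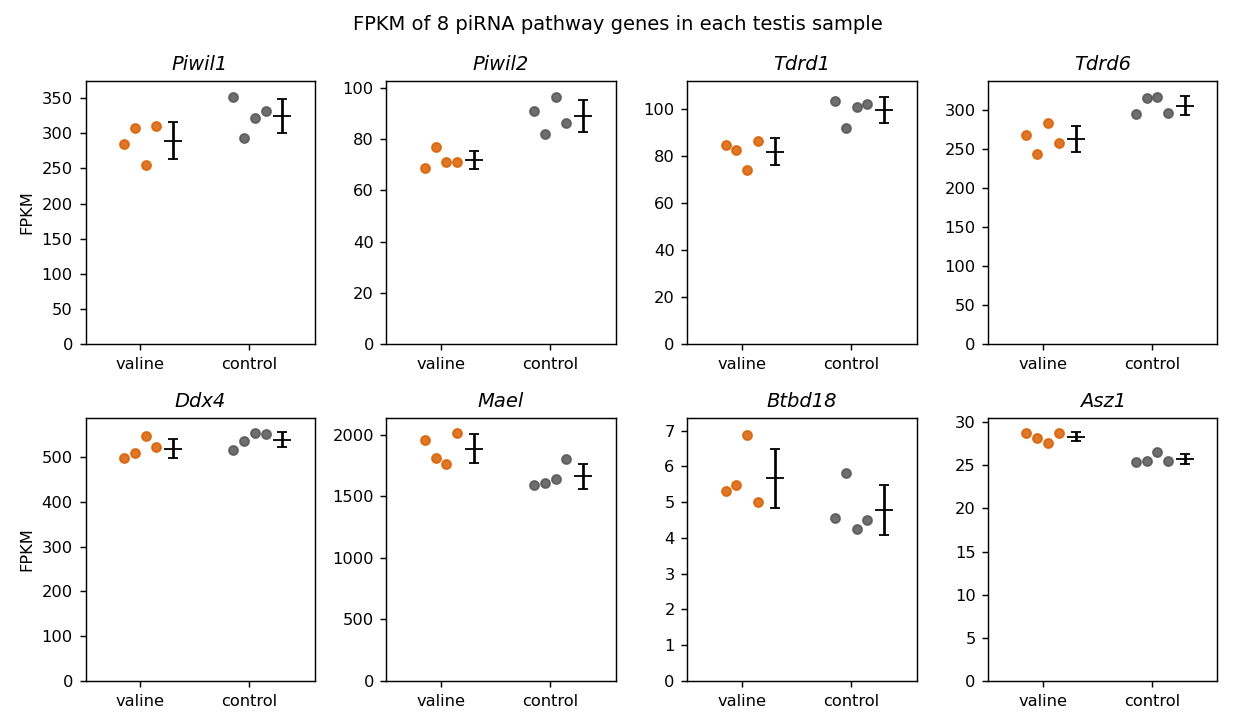
FPKM of 8 members in each library, valine left and control right, with the group mean and SD as a bar beside the points; all axes start at 0. For Piwil2, Tdrd1 and Tdrd6 every valine point lies below every control point, and for Asz1 every valine point lies above; the other panels overlap.

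None of the 16 biogenesis enzymes and granule factors passed with limma. At an unadjusted p below 0.05, 3 of the 16 were higher and 0 lower, where 3039 and 2612 of all 22077 tested genes were. Their median log2 change was 0.02, or -0.10 with equal totals and -0.03 with quantile normalisation. Mael, a granule protein that takes part in pachytene piRNA production and in transposon silencing, had the smallest p. It had 1955, 1813, 1759 and 2013 FPKM in valine testes, against 1591, 1605, 1642 and 1804 FPKM in control testes. Control replicate 4 overlapped the valine range and the other control libraries lay below it (log2 change 0.18, 95% interval 0.046 to 0.319, limma adjusted p = 0.0979). Asz1, a mitochondrial anchor of the cement, had 28.8, 28.2, 27.6 and 28.7 FPKM in valine testes, against 25.4, 25.5, 26.5 and 25.5 FPKM in control testes. Its groups did not overlap, yet the log2 change of 0.13 had a limma adjusted p of 0.12. Gtsf1, a small zinc finger protein that speeds the cutting of targets by PIWI proteins, averaged 550.0 ± 74.7 FPKM in valine and 462.3 ± 26.7 FPKM in control testes (limma adjusted p = 0.158).

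The germ line helicase Ddx4 (VASA), the granule component most used as a germ cell marker, had 497, 509, 548 and 522 FPKM in valine testes, against 516, 536, 554 and 552 FPKM in control testes. The ranges overlapped widely and the log2 change of -0.06 had a 95% interval of -0.157 to 0.047 (limma adjusted p = 0.485). The chromatoid body helicase Ddx25 had a log2 change of 0.11 and the precursor helicase Mov10l1 one of -0.09 (limma adjusted p = 0.229 and 0.399). Of the enzymes that form and finish piRNA ends, the nuclease Pld6 averaged 75.3 ± 13.0 FPKM in valine and 73.3 ± 4.58 FPKM in control testes. The trimming exonuclease Pnldc1 averaged 10.1 ± 1.71 FPKM in valine and 10.7 ± 1.13 FPKM in control testes. The end methylase Henmt1 averaged 31.3 ± 1.58 FPKM in valine and 30.0 ± 2.56 FPKM in control testes, with 14.7% of its exon length shared with Gm9857 on the opposite strand.

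Prmt5 and Wdr77, the enzyme and partner that methylate arginines of PIWI proteins for Tudor binding, had log2 changes of 0.01 and 0.00, with 95% intervals of -0.153 to 0.167 and -0.191 to 0.193. The value of Wdr77 is uncertain, since 28.7% of its exon length is shared with Gm42890 on the same strand. The co-chaperone Fkbp6 and the RNA-binding protein Tsn had log2 changes of 0.10 and 0.05. Tsnax, the partner of Tsn in an RNA-cutting complex, lay at -0.06, Exd1, found in complexes with TDRD12, at -0.06, and Gpat2, which binds PIWIL2, at -0.05. None of these had a limma adjusted p under 0.309.

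Of the 4 nuclear silencing factors none passed with limma (0 at an unadjusted p below 0.05 in either direction), and all had groups that overlapped. Of all 22077 tested genes 3039 were higher and 2612 lower at that p, and 18021 had groups that overlapped. Btbd18 was placed in this group although it promotes transcription of pachytene piRNA loci. It had 5.30, 5.49, 6.87 and 5.004 FPKM in valine testes, against 4.55, 5.83, 4.25 and 4.50 FPKM in control testes. Control replicate 2 lay inside the valine range (log2 change 0.20, limma adjusted p = 0.339). Spocd1, which links PIWIL4 to DNA methylation, averaged 7.44 ± 1.30 FPKM in valine and 6.33 ± 1.49 FPKM in control testes. Morc1, a repressor of transposons in the male germ line, averaged 2.68 ± 0.990 FPKM in valine and 1.96 ± 0.391 FPKM in control testes, with a 95% interval of the log2 change from -0.176 to 0.743. Tex15, a partner of PIWIL4, averaged 23.5 ± 2.57 FPKM in valine and 26.5 ± 3.62 FPKM in control testes. The log2 change of Piwil2, -0.30, lay inside the 95% interval of Tex15 (-0.421 to 0.094). It lay outside those of Btbd18, Spocd1 and Morc1, whose lower ends were -0.076, -0.174 and -0.176. These 3 genes are weakly expressed, so the same relative fall would read smaller for them on log2(FPKM + 1). With 1 library left out their log2 changes ranged from 0.12 to 0.29, 0.09 to 0.32 and 0.12 to 0.43. Whether they exclude the same relative fall was not tested.

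Ratios within a library do not depend on a common factor that scales the whole library, and 4 of them were tested. They can still move with a trend on length: Tdrd1 and Tdrd6 have 5443 and 7062 bases of exon, and Ddx4 has 3014. The log2 changes of Tdrd1, Tdrd6 and Ddx4 were -0.280, -0.215 and -0.055 as deposited. After removal of the length trend they were -0.219, -0.126 and -0.066. Tdrd1 stood at 17.1%, 16.3%, 13.5% and 16.6% of Ddx4 in valine testes, against 20.1%, 17.1%, 18.3% and 18.6% in control testes. Every valine ratio was below every control ratio (two-sided exact permutation p = 0.0286, the smallest that 70 arrangements can give, and 0.114 after adjustment over the 4 ratios). Tdrd6 stood at 53.9%, 47.9%, 51.6% and 49.3% of Ddx4 in valine testes, against 57.0%, 58.7%, 57.2% and 53.5% in control testes. The groups overlapped at valine replicate 1 (exact permutation p = 0.0571, adjusted 0.114). Piwil2 stood at 24.98% ± 2.09 of Piwil1 in valine and 27.5% ± 1.94 in control testes (SD, n = 4 each; exact permutation p = 0.143, adjusted 0.143). Piwil4 stood at 0.0552% ± 0.0281 of Piwil1 in valine and 0.0963% ± 0.0342 in control testes (SD, n = 4 each), with a log2 difference of -0.93 (exact permutation p = 0.143, adjusted 0.143). No ratio passed after adjustment. A ratio at the smallest p of 0.0286 could not pass on its own, since adjustment over the 4 ratios brings it to 0.114. Whether these genes fell beyond Piwil1 or Ddx4 was therefore not decided.

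The members are long genes, with a median exon length of 4260 bases, against 2596 bases over all tested genes, and change and length moved together in these libraries. Spearman's rho between the log2 change and the exon length was -0.339 across all tested genes and -0.361 across the 32 tested members (genes of the same 8 libraries, given as a description). Piwil2, Tdrd1 and Tdrd6 have 5287, 5443 and 7062 bases of exon. These bands were set after those lengths and levels were known. Of the 11 tested members with at least 5000 and fewer than 8000 bases, 3 were lower and 0 higher, where 7.82% and 1.82% of 3250 genes in that band were. Of the 16 tested members with a mean of at least 50 FPKM, 3 were lower and 0 higher, where 3.55% and 19.0% of 3384 such genes were. After removal of each library's trend on length, 0 members were lower and 0 higher by limma, where 3.31% and 2.19% of 21688 genes were. At an unadjusted p below 0.05, 3 were lower and 4 higher, the same counts as before the removal. As deposited, 2612 and 3039 of 22077 genes were lower and higher at that p. The counts over all genes after the removal were not taken, so these member counts have no background. The log2 changes were then -0.24 for Piwil2, -0.22 for Tdrd1 and -0.13 for Tdrd6 (limma adjusted p = 0.052, 0.102 and 0.213).

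**Figure D3:**
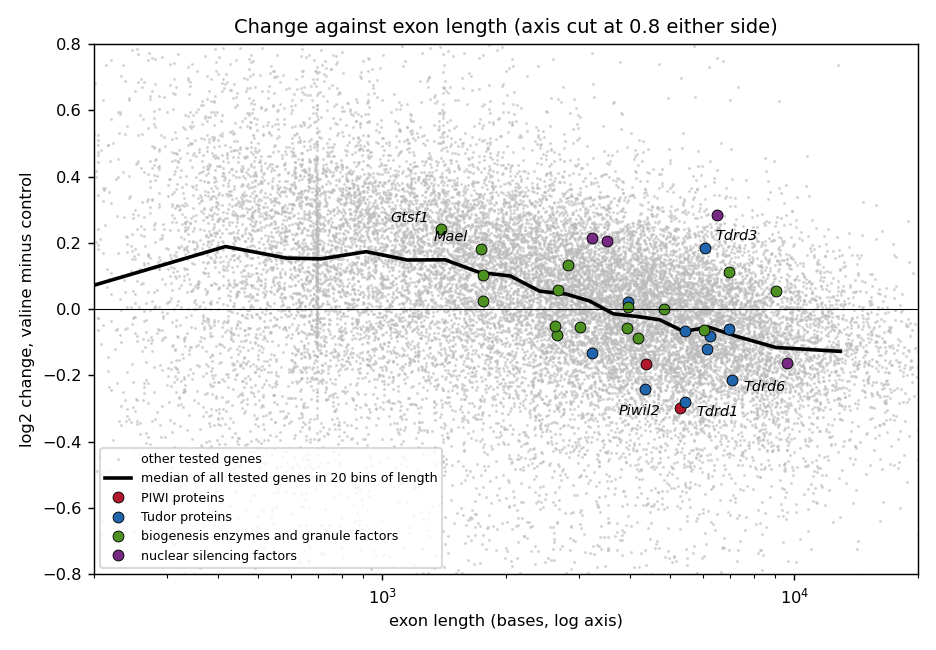
Log2 change (valine minus control) against exon length in bases, on a log axis, for all tested genes in grey and the 32 tested members in colour, with the running median of all tested genes in 20 bins as a line. The line falls with length, and Piwil2, Tdrd1 and Tdrd6 lie below it while Tdrd3 lies above it.

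The scaling of the libraries moved the members as a whole. With libraries rescaled to equal totals, which shifted the median change of all genes by -0.10, 6 members were lower and 0 higher, where 9.16% and 1.64% of all genes were. Beside Piwil2, Tdrd1 and Tdrd6 these were Piwil1 (log2 change -0.28, limma adjusted p = 0.0495), Ddx4 (-0.17, 0.0342) and Rnf17 (-0.20, 0.042). With quantile normalisation 5 were lower and 0 higher, where 4.66% and 1.80% of all genes were: the same genes apart from Rnf17. The change of Mael was 0.18 as deposited and -0.05 with quantile normalisation. Changes of Piwil2, Tdrd1, Tdrd6 and Piwil1 were negative in all 18 alternative fits, which passed the threshold in 11, 8, 6 and 2 of them.

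**Figure D4:**
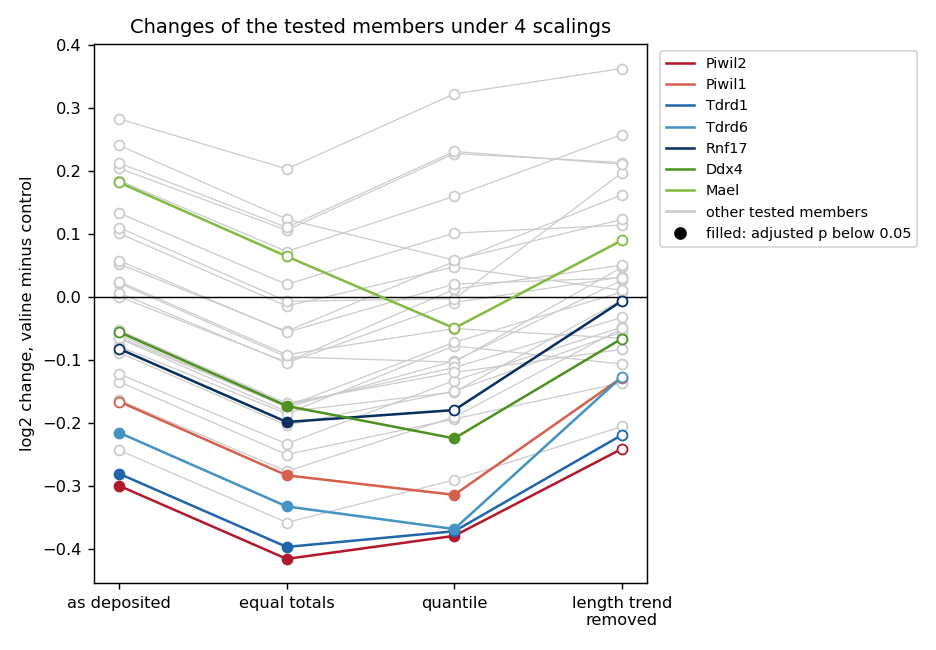
Log2 change (valine minus control) of the 32 tested members under 4 treatments of the library scale, with a line joining the values of each gene and filled points where the limma adjusted p was below 0.05. The filled points number 3 as deposited, 6 with equal totals, 5 with quantile normalisation and 0 after removal of the length trend.

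Other genes that act with the pathway were read from a list of 20, of which 18 were tested, Nanos2 was below the filter and Tdrd10 was not analysed here. Of the 18, 2 were higher and 1 lower, with a median log2 change of -0.09. The counts were 0 higher and 6 lower with equal totals, 0 and 3 with quantile normalisation, and 0 and 0 without the length trend. With 1 library left out, 0 to 2 were higher and 0 or 1 lower. Ybx2, an RNA-binding protein that stores germ cell mRNAs, averaged 2903 ± 149 FPKM in valine and 2491 ± 25.1 FPKM in control testes (limma adjusted p = 0.0204). Tcfl5, a meiotic transcription factor, averaged 256.3 ± 5.11 FPKM in valine and 227.4 ± 9.81 FPKM in control testes (limma adjusted p = 0.0445). Ybx2 missed the threshold without control replicate 1 or valine replicate 1 or 3, and Tcfl5 passed only when control replicate 4 was the library left out. Neither passed with equal totals (limma adjusted p = 0.174 and 0.376), with quantile normalisation (0.834 and 0.691) or once the length trend was taken out (0.108 and 0.0712). Kif17, a motor protein of the chromatoid body, averaged 196.8 ± 23.4 FPKM in valine and 249.2 ± 14.6 FPKM in control testes (limma adjusted p = 0.0409, and 0.0754 without the length trend). With 1 library left out it passed only without valine replicate 2. Mybl1 averaged 33.3 ± 2.75 FPKM in valine and 37.6 ± 2.96 FPKM in control testes, with a limma adjusted p of 0.218 as deposited and 0.0421 with equal totals. With equal totals 9.16% of all genes were lower. Mybl1 did not pass without the length trend, where 0 of the 18 were lower.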

How the data were processed

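The deposited table holds FPKM values that the authors made from testis RNA of 4 valine and 4 control samples. Reads were aligned with HISAT2 to GRCm39, per the submitters' processing notes; no version, quantifier, annotation or strand setting is stated in the sources used here. Columns were matched to samples by group and replicate number in their headings, and 0 per-sample columns were left unused. FPKM divides by length and by library, so a shift in a few abundant genes moves every other value.

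Genes averaging 1 FPKM or more were tested on log2(FPKM + 1) with limma 3.58.1 in R 4.3.3 (trend, treatment as the only term, two-sided), with Benjamini-Hochberg adjustment over all tested genes at 0.05. Members were read from that fit, which was tested on simulated data. Relative depth came from the most common ratio of low FPKM values between libraries. Scaled by it, 78.3% of 3283 genes with low values stood in whole steps, within 0.06 of a step plus an allowance for rounding. Depth was relative only, and no counts were recovered. Ratios were compared by exact permutation over 70 arrangements. Symbols, exon lengths, overlaps and GC content came from GENCODE vM21 of an older assembly, and promoters from RefSeq GRCm38.p6.

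The members and the other gene lists were chosen with earlier results of these data known. All members are named. Values of every sample are given for the PIWI genes, members past the threshold, the smallest p of each role, and ratio denominators. Of the related genes those past the threshold and Mybl1 are named, and Nanos2 and Tdrd10 are named as not tested. Of cell type lists the genes named are among the 2 smallest p values, with Actl7b and Oaz3 as exceptions. Actl7b was below the filter, and Oaz3 overlaps Tdrkh. Asz1 and the flagged samples were added after their values were seen. Alternatives were a pseudocount of 0.1, no filter, a stricter filter of 5 FPKM, equal totals, quantile normalisation, removal of length or GC trends (lowess, span 0.3), robust moderation, a replicate block with and without the length trend, and leaving out each library.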

Additional observations from a re-analysis of the deposited data

Results flagged for a closer look

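In 2 of 74 groups of 4 values, 66 of them members and 8 of them ratios in either treatment, 1 library stood far from the other 3 by Dixon's criterion on the gap relative to the group's range. Chance flags about 1 in 20 such groups. For Asz1, control replicate 3 was the highest control value at 26.53 FPKM, where the other control libraries lay between 25.42 and 25.52 FPKM. It was still below all 4 valine libraries. For Fkbp6, valine replicate 4 was the lowest valine value at 49.69 FPKM, where the other valine libraries lay between 53.84 and 54.53 FPKM.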

How the results depend on the processing

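The direction of every called member held under all 18 alternatives, while its call often did not. Members lower numbered 1 with no filter, 6 with equal totals, 5 with quantile normalisation, 0 after removal of the length trend, and 0 to 2 with 1 library left out. Over all genes, those higher numbered 954 as deposited, 568 with no filter, 363 with equal totals, 398 with quantile normalisation, 475 after removal of the length trend and 381 to 795 with 1 library left out. Those lower numbered 974 as deposited, 2022 with equal totals and 461 to 802 with 1 library left out. The higher genes made up 49.5% of all calls as deposited, 15.2% with equal totals and 27.9% with quantile normalisation; the cause was not tested. Of 575 pairs of a member and an alternative, 541 had no change of call, 29 lost a call and 5 gained one. The sign changed in 35 of the 541, all for values not past the threshold on either side, in 12 members that include Mael. Leave-one-out ratios cannot pass by construction. Depth is known only relative to another library, so no counting error could be given, and Piwil4 is at its limit.

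With the replicate number as a block, 0 members were lower, 581 genes were higher and 489 lower; with the length trend removed as well, 0 members were lower, 142 genes were higher and 307 lower. Deviations of same-numbered libraries correlated at -0.017, -0.040, 0.104 and 0.111, and not every sample correlated best with its own number, so the numbers were not taken to pair the samples.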
